A study of Mus musculus with 32 samples.

Results

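PRDM9 is the histone methyltransferase whose zinc finger array binds DNA and places H3K4me3 where meiotic recombination will start. The zinc fingers differ between alleles, so mice with different Prdm9 alleles use different sites. Breaks made at these sites by SPO11 are resected, and the exposed single strands are coated by the recombinase DMC1, which can be mapped as well. The 2 maps compared here are PRDM9 ChIP-seq peaks, one of the Dom2 allele in B6 mice and one of the Cst allele in RJ2 mice. All 2601 B6 peaks and all 10121 RJ2 peaks were used, out of 122081 intervals in the 9 deposited lists of the series.

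B6 mice were of strain C57BL/6JOlaHsd and RJ2 mice of strain B10.MOLSGR(A)-(D17Mit58-D17Jcs11)/Bdm, a C57BL/10 background with a wild-derived segment of chromosome 17 that carries Prdm9. Whole testes were taken at 13 days post-partum, the labels name no treatment, and each strain gave 2 ChIP and 2 input libraries. The antibody was raised against PRDM9 Cst and purified on PRDM9 Dom2. Both B6 ChIP libraries held more mapped read pairs than either RJ2 library. DMC1 was mapped in whole testes of both strains at 5 weeks post-partum, in 2 libraries each, and H3K4me3 in elutriated pachytene cells of adults, in 1 ChIP library each. PRDM9 was also mapped in 1 ChIP library of testes of strain B6;129P2-Prdm9tm1Ymat/J, called Prdm9 KO below, at 13 days post-partum. Replicates were pooled in the deposited lists, so no spread between mice can be given, and the 95% intervals below cover counting error only. The authors removed peaks found in both strains, so the lists cannot show a site bound by both alleles.

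The allele labels were checked against breaks mapped in each strain. Among B6 peaks, 71.4% lay on the central 400 bp of a B6 DMC1 interval and 0.192% (5 peaks) on that of an RJ2 DMC1 interval. Among RJ2 peaks, 67.5% lay on RJ2 DMC1 centers and 0.662% (67 peaks) on B6 DMC1 centers. Each map thus followed the breaks of its own strain. Peaks with DMC1 or with H3K4me3 found in their strain alone are called class 1, peaks with common H3K4me3 and no DMC1 class 2A, and peaks with neither mark class 2B. H3K4me3 was counted where it covered at least 10% of the peak.

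The sequences under the peaks differed between the lists, and a few carry the difference. Words of 8 bases were learned on odd-numbered chromosomes, separately for each list and class, against flanks 1500 bp away, and both strands were read. The first word of B6 class 1 was GCAGCACC and that of RJ2 class 1 was ATGTGACC. Shown first, with the word in capitals, are the 4 earliest B6 rows and the 4 earliest RJ2 rows that held the word of their list within the central 200 bp, from mm9 and 5′ to 3′ on the strand named.
B6 row 7, chr2:119320060-119320107, plus strand: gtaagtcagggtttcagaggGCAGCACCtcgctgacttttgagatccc
B6 row 28, chr1:61843366-61843413, plus strand: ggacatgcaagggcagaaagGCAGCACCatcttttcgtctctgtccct
B6 row 36, chr1:88661731-88661778, plus strand: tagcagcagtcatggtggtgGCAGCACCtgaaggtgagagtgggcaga
B6 row 49, chr11:57349517-57349564, minus strand: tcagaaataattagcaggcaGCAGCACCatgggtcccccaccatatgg
RJ2 row 3, chr6:117549534-117549581, plus strand: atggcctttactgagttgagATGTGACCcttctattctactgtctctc
RJ2 row 19, chr16:61894319-61894366, plus strand: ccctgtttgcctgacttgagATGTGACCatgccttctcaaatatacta
RJ2 row 44, chr1:173364474-173364521, plus strand: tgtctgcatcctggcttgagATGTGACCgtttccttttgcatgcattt
RJ2 row 45, chr14:33849911-33849958, plus strand: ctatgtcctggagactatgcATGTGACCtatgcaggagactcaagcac
All 8 peaks were of class 1, 7 of them of class 1a, with DMC1 and strain-specific H3K4me3, and B6 row 28 of class 1b, with DMC1 and common H3K4me3.

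The other set shown comes from class 2A of the B6 list, where the first word was TCGCGAGA and the first word of 10 bases was the palindrome TCTCGCGAGA. This is a known promoter element, called the CGCG element below, and the protein BANP is known to bind it. The 4 earliest B6 class 2A rows with it in the central 200 bp sat at promoters of Rbm39, a splicing factor, Hspa4, a chaperone of the Hsp70 family, Psmd5, which assists proteasome assembly, and Rps7, a ribosomal protein. Their centers lay 49, 77, 184 and 81 bp from the annotated transcription start.
B6 row 13 at Rbm39, chr2:156005959-156005988, plus strand: aagcacgggcTCTCGCGAGAaactgccccg
B6 row 22 at Hspa4, chr11:53113973-53114002, plus strand: aacgaaacgtTCTCGCGAGAccccggctca
B6 row 25 at Psmd5, chr2:34726535-34726564, plus strand: atctgtcaagTCTCGCGAGAtcctttctca
B6 row 26 at Rps7, chr12:29320744-29320773, plus strand: gagggacggcTCTCGCGAGAacggctcata
The first word of RJ2 class 2B was AAAATGGG, and the 4 earliest RJ2 class 2B rows with it are shown as examples of the word. All 4 were at least 26329 bp from a start. They stand early in a list where the word, like class 2B itself, was commoner late.
RJ2 row 193, chr17:27583690-27583737, plus strand: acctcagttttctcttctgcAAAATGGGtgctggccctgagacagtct
RJ2 row 603, chr8:123896796-123896843, minus strand: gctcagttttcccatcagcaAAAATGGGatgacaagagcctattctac
RJ2 row 1509, chr2:11474939-11474986, minus strand: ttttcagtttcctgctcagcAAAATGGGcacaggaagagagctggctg
RJ2 row 2082, chr19:7230467-7230514, plus strand: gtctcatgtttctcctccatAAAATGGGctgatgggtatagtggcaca

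The RJ2 list held 3.89 times as many peaks as the B6 list (interval 3.73 to 4.06). Per megabase of known sequence this came to 1.02 B6 peaks and 3.96 RJ2 peaks. The ratio was 3.87 when only class 1a peaks were counted, so class 1a stood in nearly the same ratio as the whole lists. Class 2A and class 2B did not. The B6 list had 460 class 2A peaks, which is 17.7% of it (16.2 to 19.2%), and the RJ2 list had 438, or 4.33% (3.94 to 4.74%). Class 2B came to 260 B6 peaks, or 9.996% (8.87 to 11.2%), and to 2449 RJ2 peaks, or 24.2% (23.4 to 25.0%). The RJ2 list was the longer although both of its libraries held fewer mapped read pairs. The paper reports efficient recognition of both variants by the antibody. It also reports that meiotic progression did not account for the difference in peak number. From these lists alone, the allele, the antibody and the number of peaks accepted cannot be told apart.

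Both lists were ordered, with wide intervals first. Width fell with row number in B6 (Spearman's rho −0.77 over 2601 rows) and in RJ2 (rho −0.76 over 10121 rows). In 10 equal groups of rows, the median width went from 806 bp in the first group to 314 bp in the last in B6, and from 964 to 357 bp in RJ2. RJ2 intervals were the wider in each of the 10 groups. The files give no score, so the order stands for strength only as far as width does. Over whole lists the median was 473 bp in B6 (interval 465 to 483 bp) and 552 bp in RJ2 (547 to 558 bp). The first 2601 RJ2 rows, equal in number to the B6 list, had a median of 825 bp (811 to 838 bp). Because wide intervals come first, this choice picks wide RJ2 intervals, and a larger gap to the whole B6 list follows from it. Intervals over 1 kb made up 2.81% of the B6 list, 9.05% of the RJ2 list and 28.9% of the first 2601 RJ2 rows.

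What stood at the top of each list differed. The first 261 B6 rows held 190 peaks with DMC1 (72.8%, interval 67.0 to 78.1%), 71 class 2A peaks (27.2%) and no class 2B peak. The first 1013 RJ2 rows held 989 peaks with DMC1 (97.6%, interval 96.5 to 98.5%), 2 class 2A peaks (0.197%) and 12 class 2B peaks (1.18%). In B6 the share of class 2A was highest in the first group and lay between 13.8 and 20.8% in the other 9. In RJ2 it was lowest in the first group and reached 6.52% in the last. Class 2B rose toward the end of both lists, to 36.5% in B6 and 48.9% in RJ2. Among the first 2601 RJ2 rows, 93.0% had DMC1, 1.61% were class 2A and 3.88% class 2B.

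**Figure D1:**
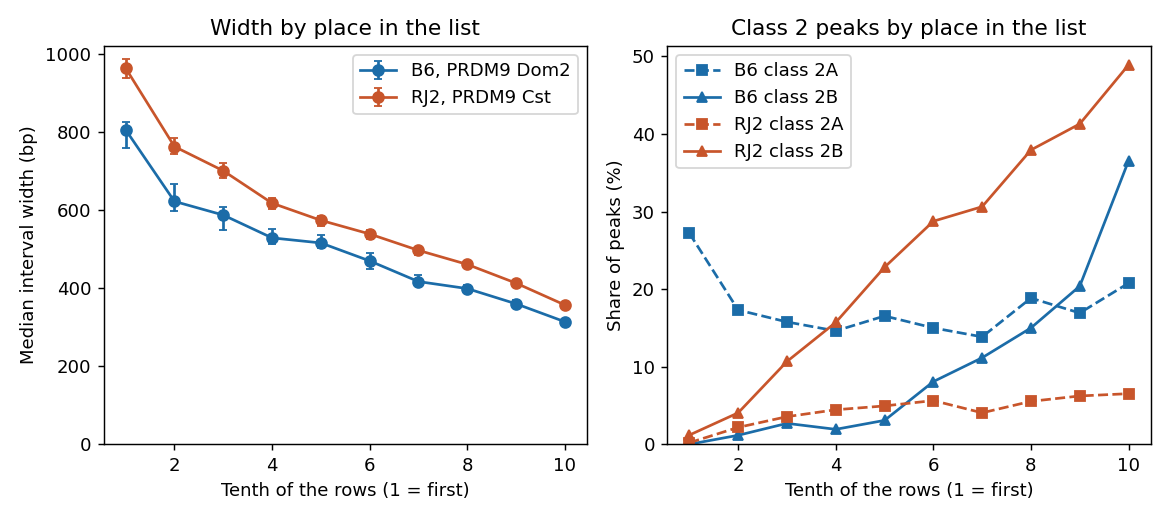
Median interval width in bp (left, with 95% order-statistic intervals) and share of class 2A and class 2B peaks in percent (right) in 10 equal groups of rows of the B6 and RJ2 lists. Width falls along both lists, from 806 to 314 bp in B6 and from 964 to 357 bp in RJ2, while class 2A makes up 27.2% of the first B6 group and 0.197% of the first RJ2 group.

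The first 3 rows of each list were class 1a peaks. B6 row 1 (chromosome 4, 119914887 to 119916324) was 44348 bp away from Foxo6 and B6 row 2 (chromosome 12, 27373634 to 27375035) 220266 bp from Cmpk2, counted to the nearest start. B6 row 3, on chromosome 8 from 33359869 to 33361492, was also the widest of its list, at 1624 bp. These 3 B6 peaks were intergenic. RJ2 row 1 lay on chromosome 2 from 164586767 to 164587974, in Dnttip1 and 212 bp from the start of an annotated 7SK copy. RJ2 row 2 was in an intron of Hpse2 on chromosome 19 from 43230197 to 43231558, and RJ2 row 3 is the chromosome 6 site whose sequence is given above. The widest RJ2 interval, row 33, spanned 5811 bp on chromosome 17 from 27511567 to 27517377. It was intergenic and held both ATGTGACC and GCAGCACC.

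On chromosomes that served for no learning (even-numbered and X), each class 1 word kept to its own list. GCAGCACC was in the central 200 bp of 10.9% of 965 B6 class 1 peaks (interval 8.99 to 13.0%) and of 0.684% of 3507 RJ2 class 1 peaks (0.439 to 1.02%). Tiles of 200 bp on the same chromosomes held it in 0.582% of cases. ATGTGACC was in 5.62% of RJ2 class 1 peaks (4.88 to 6.43%) and in 1.35% of B6 class 1 peaks (0.719 to 2.29%), against 0.643% of tiles. A single exact word catches few sites, so weight matrices of 32 bp were also learned on class 1 peaks of the odd-numbered chromosomes. Their consensus, with N where no base reached 60%, was GGNAGNANCANCT for B6 and GNCTNGGNNTNTGNCNNTT for RJ2.

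With the score set so that 5% of the training flanks passed, the B6 matrix was found in the central 200 bp of 66.4% of B6 class 1 peaks (interval 63.3 to 69.4%) and 4.62% of RJ2 class 1 peaks (3.95 to 5.37%). The RJ2 matrix was found in 65.8% of RJ2 class 1 peaks (64.2 to 67.4%) and 2.80% of B6 class 1 peaks (1.85 to 4.04%). Flanks passed in 5.56% of cases for the B6 matrix around B6 peaks and in 5.10% for the RJ2 matrix around RJ2 peaks. Class 2A and class 2B peaks held far fewer hits. The B6 matrix was in 11.5% of B6 class 2A peaks and 15.6% of B6 class 2B peaks, and the RJ2 matrix in 13.4% of RJ2 class 2A and 6.94% of RJ2 class 2B peaks. Hits gathered at the peak centers, with 43.5% of B6 class 1 peaks and 43.3% of RJ2 class 1 peaks having one that began in the 100 bp just before the center.

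**Figure D2:**
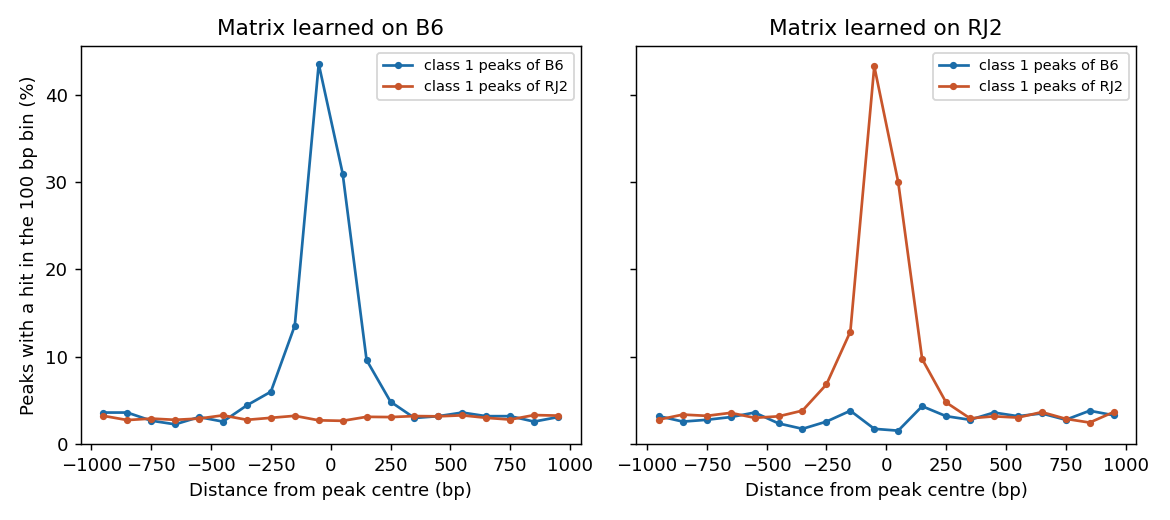
Share of class 1 peaks on even-numbered chromosomes and X with a matrix hit beginning in each 100 bp bin (percent, vertical axis) by distance from the peak center (bp, horizontal axis), for the matrix learned on B6 (left) and on RJ2 (right). Each matrix peaks at the centers of its own list, at 43.5% and 43.3%, and is at 2.74% and 1.76% in the same bin of the other list.

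Rows early and late in the lists differed in matrix hits as well. The RJ2 matrix was in 56.8% of the peaks of the first group of RJ2 rows (interval 52.3 to 61.3%) and in 38.3% of the last (34.1 to 42.6%). The B6 matrix was in 43.8% of the first group of B6 rows (34.8 to 53.1%), in 63.8% of the eighth (54.96 to 72.1%) and in 45.0% of the last (36.2 to 54.0%). The other 7 B6 groups lay between 49.6 and 62.4%. These groups mix classes. Class 2B rose from 1.18 to 48.9% of RJ2 rows and from 0 to 36.5% of B6 rows between the first and last group. The RJ2 matrix was in 6.94% of RJ2 class 2B peaks, against 65.8% of RJ2 class 1. Hits by row within class 1 were not counted, so these values do not show a trend within a class.

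The CGCG element was in many B6 class 2A peaks and in hardly any RJ2 peak. On the chromosomes not used for learning, TCGCGAGA was in the central 200 bp of 36.5% of 192 B6 class 2A peaks (interval 29.6 to 43.7%), in 1 of 179 RJ2 class 2A peaks (0.559%, 0.0141 to 3.07%) and in 0.0159% of tiles. In B6 class 1 it was in 1 of 965 peaks. Among 1080 peaks called on these chromosomes in Prdm9 KO testes, which lack PRDM9, 1 held it (0.0926%), and at the centers of common H3K4me3 intervals 0.153% did. The full TCTCGCGAGA was in 17.2% of B6 class 2A peaks and in 0.00137% of tiles. None of 4838 RJ2 peaks had it there, which allows a share of up to 0.0620% in a list without the peaks shared with B6.

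Seen from the genome, TCTCGCGAGA occurs 218 times on the chromosomes used, 187 times within 1 kb of a transcription start. These counts of the element, and those of the next paragraph, include the odd-numbered chromosomes on which it was learned from B6 peaks. The B6 shares are thus partly drawn from the peaks that chose it. Of these 187 copies, 134 lay inside a B6 peak (71.7%, interval 64.6 to 78.0%) and 0 inside an RJ2 peak. For the 134 copies in B6 peaks, the removal of shared peaks largely fixed this 0 in advance, so no limit is given. Of the 31 copies elsewhere, 1 lay in a B6 peak. Common H3K4me3 covered 140 of the 218 copies, and 110 of those (78.6%, 70.8 to 85.1%) were in a B6 peak, against 25 of the 78 copies without it. An RJ2 peak center lay within 1 kb of 3 copies. RJ2 peaks at such promoters that were shared with B6 would have been removed from both lists. The copies within B6 peaks were therefore not called in RJ2, or were called there in an interval that did not count as shared.

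In all, 125 B6 peaks held TCTCGCGAGA within the interval, 120 of class 2A and 5 of class 2B. Their median row was 410 of 2601, and 49 stood among the first 261 rows. Within the central 200 bp it was in 12.6% of the first group of B6 rows, in 6.54% of the second and in 0.769% of the last. Class 2A peaks of B6 were also richer in CpG. CpG-rich centers (GC from 55% and observed over expected CpG from 0.65 upward, over 200 bp) made up 67.0% of B6 class 2A (interval 62.5 to 71.2%) and 21.7% of RJ2 class 2A (17.9 to 25.8%). Median GC was 61.0% and 54.5%, while class 1 centers had 45.0% in both strains.

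The RJ2 list had a word of its own outside class 1. AAAATGGG was in 12.5% of 1152 RJ2 class 2B peaks (interval 10.6 to 14.5%), in 2.34% of 128 B6 class 2B peaks (0.486 to 6.70%) and in 1.54% of tiles. CCATTTTA, the first word of RJ2 class 2A, was in 7.26% of RJ2 class 2A peaks (3.92 to 12.1%), in 10.9% of RJ2 class 2B peaks and in 1.27% of tiles. The 5 leading words of RJ2 class 2B, among them AAACTGAG and ACTGAGGC, are also found in the consensus of the MIR family of repeats, and repeat annotation was not used here. In the Prdm9 KO list AAAATGGG was in 3.24% of peaks. Among RJ2 class 2B peaks that overlapped a Prdm9 KO peak, 4 of 86 on chromosomes not used for learning held it (4.65%, interval 1.28 to 11.5%). That interval overlaps the 10.6 to 14.5% of the whole class. Over all chromosomes, 3.50% of the 200 such peaks held it. Whether it depends on PRDM9 in RJ2 was not tested, as RJ2 mice without PRDM9 were not analysed here.

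Along the RJ2 list this word went the opposite way to the CGCG element along the B6 list. It was in 1.28% of the first group of RJ2 rows and in 8.10% of the last. Class 2B, the RJ2 class with the largest share of this word, made up 1.18% of the first group and 48.9% of the last. The word by row within class 2B was not counted. In B6 class 2B the first word was AGAGGGCG, which is part of the known CTCF motif. On the held-out chromosomes it was in 3 of 128 peaks (2.34%, interval 0.486 to 6.70%), against 8 of 1152 in RJ2 class 2B (0.694%, 0.300 to 1.36%) and 0.219% of tiles. The intervals of the B6 and RJ2 shares overlapped.

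**Figure D3:**
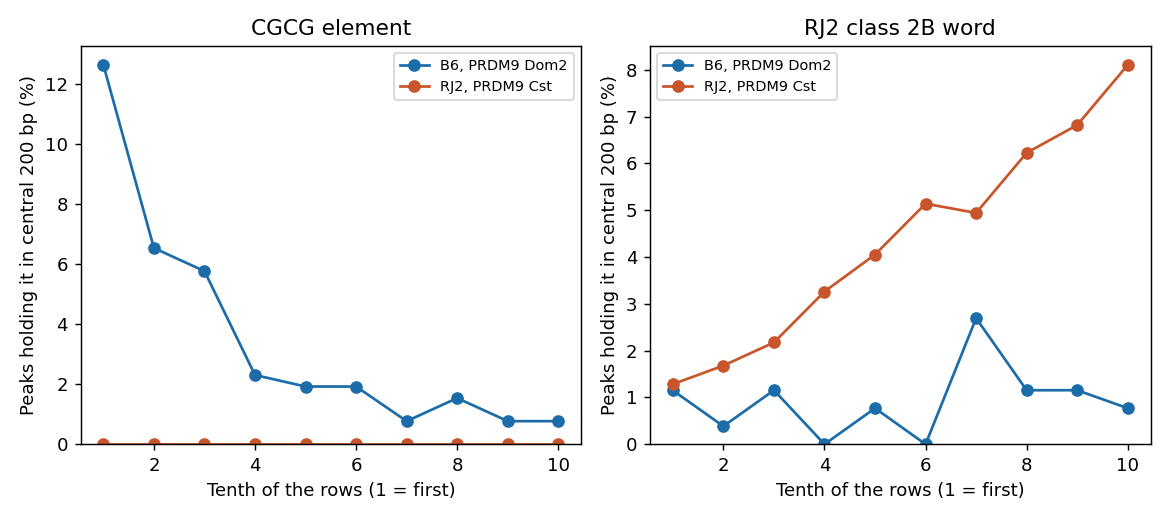
Share of peaks (percent, vertical axes) with the CGCG element (left) or with the first word of RJ2 class 2B (right) in the central 200 bp, in 10 equal groups of rows, over all chromosomes. The CGCG element falls from 12.6 to 0.769% along the B6 list and is at 0 along the RJ2 list, while the RJ2 word rises from 1.28 to 8.10% along the RJ2 list.

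Promoters took a larger part of the B6 list. Within 1 kb of a transcription start lay 530 B6 peaks (20.4%, interval 18.8 to 22.0%) and 994 RJ2 peaks (9.82%, 9.25 to 10.4%). In the first group of rows the shares were 31.8% in B6 and 5.92% in RJ2. By the position of their center, 50.4% of B6 peaks and 45.3% of RJ2 peaks were intergenic and 39.1% and 48.9% intronic. UTR exons held 5.34% of B6 and 2.39% of RJ2 centers, and coding exons 3.84% and 2.30%. The shares of genome positions near a start or in each of these places were not counted. The values therefore compare the lists with each other, not with the genome.

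Among 41 annotated genes of a list of meiotic genes, 4 had a B6 peak within 1 kb of a start and 1 had an RJ2 peak. Over all annotated genes, the shares were 1.91% for B6 and 3.07% for RJ2. The B6 peaks were at Sycp1, a protein of the synaptonemal complex, at Smc1b and Stag3, which are meiotic cohesin subunits, and at Hells, a chromatin remodeler. All 4 were of class 2A and all 4 held TCGCGAGA. Their sequences around this word, in capitals, are shown because these 4 are the B6 peaks at promoters of the gene list. All 4 lie on odd-numbered chromosomes, where B6 class 2A peaks were used to choose the word, so none is held out. Over the whole interval, 47.9% of B6 class 2A peaks on the held-out chromosomes had TCGCGAGA, and no test was made on these 4.
B6 row 703 at Sycp1, chr3:102740083-102740112, plus strand: cgcagcacttcTCGCGAGAtttcccttccc
B6 row 1073 at Smc1b, chr15:84962443-84962472, plus strand: ttttcgaagtcTCGCGAGActggcgcgggg
B6 row 1645 at Stag3, chr5:138721655-138721684, minus strand: gctgagaagtgTCGCGAGActtggcgcagc
B6 row 1704 at Hells, chr19:39005390-39005419, plus strand: agcccgaagtcTCGCGAGAccaccgggttt
At Sycp1, Smc1b and Hells the interval held the full TCTCGCGAGA. The Smc1b peak lay 4 bp from the start of Ribc2, whose start is close to that of Smc1b. The RJ2 peak was at Spo11, which makes the meiotic breaks, on chromosome 2 from 172805371 to 172805860. It was row 5032, of class 2A, in an intron 266 bp from the nearest annotated Spo11 start, and it held none of the words above.

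The ratio of the lists varied little beyond counting error between chromosomes, while their densities by autosome were only loosely related. Over 19 autosomes, B6 and RJ2 peaks per Mb correlated with a Spearman's rho of 0.39. The number of RJ2 peaks per B6 peak ranged from 3.04 on chromosome X (interval 2.21 to 4.24) to 4.77 on chromosome 18 (3.72 to 6.18). Intervals of 18 of 20 chromosomes held the overall 3.89. The exceptions were chromosome 1, at 3.25 (2.79 to 3.80), and chromosome 5, at 4.75 (3.98 to 5.71). Chromosome 17, with the wild-derived segment of RJ2, stood at 4.59 (3.65 to 5.81). Both maps were thin on chromosome X, which had 0.321 B6 and 0.975 RJ2 peaks per Mb, against 1.06 and 4.16 on autosomes. Chromosome X had 0.807% of the first 2601 RJ2 rows and 1.999% of the B6 list (interval 1.497 to 2.61%). Males carry a single X, and the effect of its copy number on the calls was not tested.

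**Figure D4:**
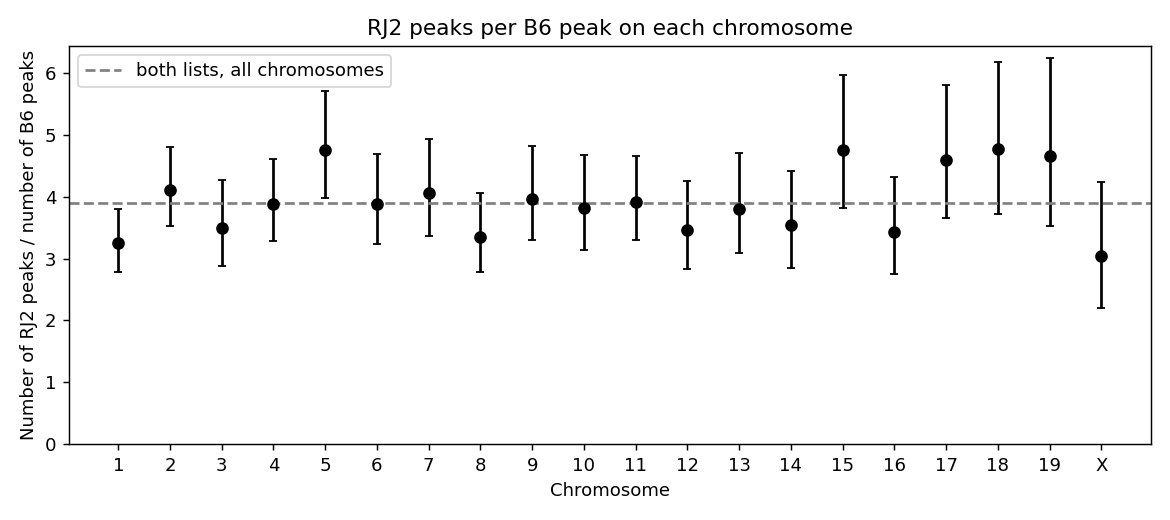
Number of RJ2 peaks per B6 peak (vertical axis) on each chromosome (horizontal axis), with 95% intervals, and the ratio over all chromosomes as a dashed line at 3.89. Chromosome 1 lies below and chromosome 5 above the line with their whole interval.

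Along the chromosomes the lists were dense in the same regions. Over 254 windows of 10 Mb the numbers of B6 and RJ2 peaks correlated with a Spearman's rho of 0.64, which was 0.51 for class 1 peaks. Windows share base composition, gene density and mappability, so the value is a description of these lists. The window from 130 to 140 Mb of chromosome 4 held the most B6 peaks, 39, and 107 RJ2 peaks. The window from 110 to 120 Mb of chromosome 5 held the most RJ2 peaks, 114, and 29 B6 peaks. Toward the distal end of the autosomes RJ2 peaks became denser, with 13.8% in the last of 10 equal parts (interval 13.1 to 14.5%), against 10.5% of B6 peaks (9.31 to 11.7%). Among the first 2601 RJ2 rows that share was 12.6% (11.4 to 13.98%). The part nearest the centromere held 4.32% of B6 and 5.10% of RJ2 peaks.

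Within its own list, a B6 peak had its nearest neighbor at a median of 259 kb (interval 238 to 271 kb) and an RJ2 peak at 62.7 kb (59.97 to 64.9 kb). At equal numbers the distance was the same within its error: the first 2601 RJ2 rows had a median of 257 kb (239 to 271 kb). Neighbors within 10 kb were found for 2.499% of B6 peaks (1.93 to 3.17%) and 4.96% of these RJ2 rows (4.16 to 5.87%), and for 13.7% of all RJ2 peaks. Of genome positions taken every 1 kb, 2.01% lay within 10 kb of a B6 center and 7.36% within 10 kb of an RJ2 center. At the same number of peaks, close neighbors were thus commoner in RJ2 than in B6, with intervals that did not overlap.

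Chains of peaks with steps of at most 10 kb were longer in RJ2. B6 had 31 pairs and 1 chain of 3 peaks, and RJ2 had 546 pairs and 85 chains of 3 or more. The longest RJ2 chain had 11 peaks over 28.3 kb of chromosome 17, from 18489681 to 18518003, and its nearest start, 57226 bp away, was that of Vmn2r95, a vomeronasal receptor gene. Chromosome 17 carries the wild-derived segment of RJ2, and binding and a difference in sequence or copy number from the mm9 genome cannot be told apart there. The next longest chain, of 7 peaks over 26.0 kb, was on chromosome 4 from 62156176 to 62182142, near Hdhd3, and 6 of its peaks were among the first 2601 rows.

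The maps lay near each other more often than positions of the genome did, except at the shortest range. The nearest RJ2 center was at a median of 76.7 kb from a B6 center (interval 71.9 to 81.5 kb), while genome positions had a median of 109 kb. Within 100 kb of an RJ2 center lay 57.9% of B6 peaks (56.0 to 59.8%), against 47.5% of positions, and within 10 kb 10.3% (9.12 to 11.5%), against 7.36%. Within 1 kb the share was 0.577% (15 peaks, 0.323 to 0.949%), against 0.788%. The removal of shared peaks acts at this range. In the other direction, 23.2% of RJ2 peaks were within 100 kb of a B6 center (17.5% of positions), 2.84% within 10 kb (2.01% of positions) and 0.148% within 1 kb (0.203% of positions). The median from RJ2 to B6 was 280.5 kb, against 405 kb for positions. Positions, here and below, were taken over all known bases and not matched to the peaks for chromosome, gene density or mappability. Chromosome X had 6.34% of known bases but 1.999% of B6 and 1.56% of RJ2 peaks. How much of the nearness comes from such shared features was not tested.

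**Figure D5:**
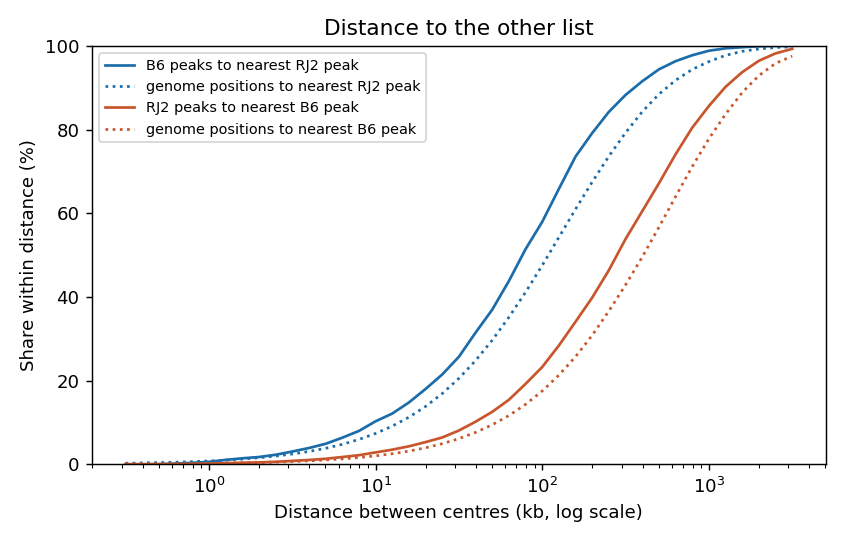
Share of peaks within a distance of the nearest peak of the other list (percent, vertical axis; distance in kb on a log axis), for B6 peaks and RJ2 peaks (solid) and for genome positions taken every 1 kb (dotted). At 10 and 100 kb both solid lines run above their dotted line and at 1 kb below it, with 57.9 against 47.5% at 100 kb for B6 and 23.2 against 17.5% for RJ2.

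Class 1 peaks alone were nearer than positions as well. With class 1 peaks of both lists, 48.2% of B6 peaks were within 100 kb of an RJ2 peak (interval 45.9 to 50.5%), against 40.8% of positions, and 7.02% were within 10 kb (5.90 to 8.27%), against 5.47%. Of B6 class 2A peaks, 63.9% were within 100 kb of any RJ2 peak (59.3 to 68.3%) and 13.3% within 10 kb. Of the 15 pairs with centers within 1 kb, 6 joined 2 class 2A peaks and 5 joined 2 class 1 peaks.

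The closest pair had centers 447 bp apart and 66 bp between the intervals, both of class 2A at the start of Rabggtb, an enzyme subunit that prenylates Rab proteins, on chromosome 3. The B6 peak ran from 153576031 to 153576344 and the RJ2 peak from 153575518 to 153575964. The next was at 0610007P08Rik on chromosome 13, with centers 547 bp apart, where the B6 peak stood at row 166 and the RJ2 peak at row 9950. The third pair, 566 bp apart on chromosome 6, joined 2 class 1b peaks 17304 and 16738 bp from the start of Tmem106b, B6 row 2076 and RJ2 row 2972. The fourth, 585 bp apart on chromosome 4, joined a B6 class 2A and an RJ2 class 1b peak near Guca2b. The fifth, 696 bp apart on chromosome 8, was at Ddhd2.

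Peaks of both lists met in common H3K4me3 intervals and at promoters at shares near those over all intervals and genes. Of 41014 common H3K4me3 intervals, 562 held a B6 peak alone, 753 an RJ2 peak alone and 9 both, which is 1.58% of those with a B6 peak and 1.18% of those with an RJ2 peak. Of all common intervals, 1.86% held an RJ2 peak, within the interval of the 1.58% (0.723 to 2.97%), and 1.39% held a B6 peak, within that of the 1.18% (0.541 to 2.23%). The removal of shared peaks lowers the number with both. The widest of the 9 spanned 8354 bp on chromosome 5 at Rbm47. Among genes with a peak within 1 kb of a start, 628 had B6 peaks alone, 1026 RJ2 peaks alone and 29 both. These 29 are 4.41% of the genes with B6 peaks (interval 2.98 to 6.28%) and 2.75% of those with RJ2 peaks (1.85 to 3.92%). Of all genes, 3.07% had an RJ2 peak and 1.91% a B6 peak, each within the matching interval.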

How the data were processed

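PRDM9, DMC1 and H3K4me3 ChIP-seq peaks of B6 and RJ2 testes and PRDM9 peaks of Prdm9 KO testes were analysed, 8 lists in all. The deposited values are interval positions on mm9, with no score, count or replicate. The authors mapped reads with Bowtie2 (DMC1 with a modified BWA, H3K4me3 with Bowtie) and called peaks with MACS. PRDM9 and DMC1 peaks of B6 and RJ2 were selected by the irreproducible discovery rate between replicates. H3K4me3 peaks, from 1 library per strain, were those found in each of several sets of reads, and Prdm9 KO peaks were called with a less strict p-value. PRDM9 peaks shared by both strains were removed. They describe removing peaks over Prdm9 KO peaks, yet 252 RJ2 and 2 B6 peaks overlapped one. The submitters' notes also name CASAVA and MACS2. Peaks per replicate and read depth per peak were not analysed here.

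Peaks were read in file order. Classes followed the rule of the study's methods, without the H3K4me3 lists of other studies. Sequence came from NCBIM37 (mm9) and genes from GENCODE vM1 on the same build. Words and matrices (8 rounds) were learned on odd-numbered chromosomes. Shares carry Clopper-Pearson intervals, medians order-statistic intervals and numbers of peaks binomial ones, all at 95%; no test was made, because each strain has 1 pooled list. A count of 0 was given the limit of 3 counts. Named peaks are the first 3 rows and the widest peak of each list, the 5 closest pairs, peaks within 1 kb of a start of a list of 47 meiotic gene names (41 annotated), and named chromosomes those with the extreme ratios, X and 17. The longest chains, chromosomes 1 and 5, the fullest windows, the Rbm47 interval and the CGCG and class 2B sequences were chosen after their values were seen. Members and lists were chosen with earlier results of these data known. Functions were tested on simulated data. Python 3.11.15, numpy 2.4.6, scipy 1.17.1, pysam 0.24.0 and matplotlib 3.10.9 were used.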

Additional observations from a re-analysis of the deposited data

How the results depend on the processing

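Of 55 alternative values for 29 results, 19 stayed within the interval of the main value (or within 1.5 times a main count), 36 moved and 0 changed sign. With as many first RJ2 rows as B6 has rows, the RJ2 width was 825 bp, RJ2 spacing 257 kb, the distance from B6 to RJ2 283 kb, the RJ2 over B6 share of chromosome X 0.404, RJ2 peaks with DMC1 93.0%, with common H3K4me3 5.61% and near a start 7.19%, common H3K4me3 intervals with both alleles 3 and genes with both 5. With class 1 alone, widths were 504 bp in B6 and 588 bp in RJ2, the window correlation 0.51, and the distances to the other list 107 kb from B6 and 457 kb from RJ2. In the first 50% of the rows the widths were 592 and 706 bp. Windows of 5 and 1 Mb gave correlations of 0.55 and 0.30. H3K4me3 over 50% of the interval was met by 6.12% of RJ2 peaks. GC in 500 bp was 46.2% in both lists, and 18.3% of B6 and 6.35% of RJ2 peaks were within 500 bp of a start. One B6 peak covered 50% of a Prdm9 KO interval (1, against 2 overlaps). The share with the class word, in the order central 100 bp, whole interval and up to 1 mismatch, was 7.25, 13.8 and 45.6% in B6 class 1, 22.9, 47.9 and 53.1% in B6 class 2A, 3.62, 9.24 and 28.0% in RJ2 class 1, and 8.68, 16.6 and 40.1% in RJ2 class 2B. The RJ2 interval stayed the wider, and the RJ2 share near a start the lower, under every alternative run for them. Among these, the first RJ2 rows were wide by the order of the list.

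No paired analysis was possible because the replicates are pooled in each list, and for the same reason leaving out a replicate was not run. Depth limits the lists: they do not tell an unbound site from one below the threshold or removed as shared. Intervals treat peaks as independent, and neighboring peaks need not be.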
